A study of Mus musculus with 146 samples.

Results

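The 10 genes described here belong to 3 families that are named for the oocyte: the oogenesins Oog1, Oog2, Oog3 and Oog4, the oocyte-specific homeobox genes Obox1, Obox2, Obox3, Obox5 and Obox6, and Oosp1, which encodes oocyte secreted protein 1. They were taken by symbol from 52605 gene symbols in the quantification tables of 146 single-cell libraries, each made from 1 ovarian cell of newborn C57/BL6J females (age D0.5, so 0.5 day after birth). All pups came from 1 litter and no cell was traced to an animal, so the whole series is 1 untreated group and every value below is a description without a test between conditions. The cells were hand-picked as germ cells after enzyme digestion, and cDNA in which the pregranulosa marker Foxl2 was seen by PCR had been discarded by the study. A library entered if its Ddx4 level, a germ cell marker, was at least 1 TPM (transcripts per 1000000 transcripts, a level corrected for transcript length and depth), which left out 1 of the 146 libraries. The rest are called the germ cell libraries.

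Oogenesins are leucine-rich repeat proteins of the PRAME family, a large group of tandem gene copies with many members restricted to the germ line or the early embryo. Obox proteins carry a homeodomain, and several of them act on the embryonic genome around the time it is first transcribed in mouse. Oosp1 lies beside Oosp2 and Oosp3 and encodes a secreted protein related to the placental protein PLAC1 and to the zona pellucida domain, the fold of the egg coat proteins. In ovaries of this age germ cells leave the cysts in which they divided and become enclosed in primordial follicles, and transcription factors such as FIGLA and SOHLH1, which bind E-boxes, and NOBOX and LHX8, which are homeodomain proteins, are needed for that step.

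The genes lie in clusters of similar copies. In the mm10 annotation (GENCODE M21), Oog4 (chr4:143437164-143450324), Oog3 (chr4:144157557-144162663) and Oog2 (chr4:144190719-144196934) share a stretch of chromosome 4, while Oog1 lies on chromosome 12 (chr12:87602688-87608850). The Obox genes sit together on chromosome 7, as Obox2 (chr7:15388721-15398545), Obox1 (chr7:15388948-15556866), Obox3 (chr7:15479825-15639902), Obox5 (chr7:15750131-15759800) and Obox6 (chr7:15833241-15839678). The annotated span of Obox1 covers most of Obox2 on the same strand. Oosp1 (chr19:11667460-11691150) is on chromosome 19 between Oosp2 (chr19:11647279-11660559) and Oosp3 (chr19:11697055-11711874).

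RefSeq promoters (build GRCm38.p6, 250 bases before the start site) were matched by symbol for 9 of the 10 genes. The promoters of the 4 oogenesins are shown for comparison with each other. Those of Oosp1, Obox1 and Obox3 are shown because these genes took the extremes of the levels described below. Capitals mark CANNTG (the E-box, which reads the same on both strands) and TAATTG on either strand (a homeodomain site, CAATTA on the other strand). The positions are chr12:87602415-87602664 (forward strand) for Oog1, chr4:144190467-144190716 (forward strand) for Oog2, chr4:144162652-144162901 (reverse strand) for Oog3 and chr4:143450325-143450574 (reverse strand) for Oog4. For the other three they are chr19:11691052-11691301 (reverse strand) for Oosp1, chr7:15547007-15547256 (forward strand) for Obox1 and chr7:15639778-15640027 (reverse strand) for Obox3.
Oog1: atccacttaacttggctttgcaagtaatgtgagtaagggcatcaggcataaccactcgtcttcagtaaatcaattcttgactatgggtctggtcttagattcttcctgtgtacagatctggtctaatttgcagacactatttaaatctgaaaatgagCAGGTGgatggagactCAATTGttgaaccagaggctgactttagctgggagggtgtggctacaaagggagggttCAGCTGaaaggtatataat
Oog2: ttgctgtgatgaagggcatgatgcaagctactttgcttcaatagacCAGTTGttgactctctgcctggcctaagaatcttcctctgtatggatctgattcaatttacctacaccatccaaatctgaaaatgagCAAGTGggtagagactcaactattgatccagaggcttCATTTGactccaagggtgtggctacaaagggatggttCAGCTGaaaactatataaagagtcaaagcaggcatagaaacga
Oog3: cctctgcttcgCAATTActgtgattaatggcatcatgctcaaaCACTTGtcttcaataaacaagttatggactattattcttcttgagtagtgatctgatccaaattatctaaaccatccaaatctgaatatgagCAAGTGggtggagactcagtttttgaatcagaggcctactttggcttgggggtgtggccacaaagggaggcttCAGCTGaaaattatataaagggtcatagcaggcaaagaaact
Oog4: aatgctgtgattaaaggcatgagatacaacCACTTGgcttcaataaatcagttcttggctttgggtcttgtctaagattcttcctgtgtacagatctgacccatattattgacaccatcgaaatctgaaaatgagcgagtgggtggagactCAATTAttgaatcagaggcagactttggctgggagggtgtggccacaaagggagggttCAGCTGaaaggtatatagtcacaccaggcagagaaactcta
Oosp1: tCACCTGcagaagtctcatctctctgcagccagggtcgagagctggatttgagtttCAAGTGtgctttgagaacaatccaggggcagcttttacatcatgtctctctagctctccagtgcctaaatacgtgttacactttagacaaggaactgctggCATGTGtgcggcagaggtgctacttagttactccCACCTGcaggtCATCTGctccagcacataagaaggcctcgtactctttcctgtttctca
Obox1: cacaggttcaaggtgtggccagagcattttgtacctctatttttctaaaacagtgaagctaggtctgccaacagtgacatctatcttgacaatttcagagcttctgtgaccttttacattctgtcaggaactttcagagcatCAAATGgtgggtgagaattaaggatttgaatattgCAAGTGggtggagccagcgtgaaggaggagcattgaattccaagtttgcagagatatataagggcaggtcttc
Obox3: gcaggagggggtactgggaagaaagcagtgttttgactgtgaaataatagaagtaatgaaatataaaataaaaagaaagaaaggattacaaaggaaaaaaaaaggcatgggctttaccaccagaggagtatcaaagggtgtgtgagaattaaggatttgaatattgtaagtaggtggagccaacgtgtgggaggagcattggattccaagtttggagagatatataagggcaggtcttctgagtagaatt

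In global alignments of these 250 bases, the oogenesin promoters were 64.2% (Oog1 and Oog2) to 76.9% (Oog2 and Oog4) identical. Obox1 and Obox5 were 87.8% identical, Obox3 and Obox5 63.2% and Obox1 and Obox3 62.1%. The Obox2 window aligned at 37.6% to 50.5% with the other three, but its last 153 bases are, letter for letter, the first 153 of the Obox1 window, so the 2 windows hold the same stretch at another distance from the annotated start. Over the whole window of 300 bases (50 bases past the start included), 8 of the 9 promoters held CANNTG, against 72.3% of all 32851 promoters in the table. Oosp1 held 5 copies, Oog2 and Obox2 4 each, Oog1 and Oog3 3 each, Oog4, Obox1 and Obox5 2 each and Obox3 0. The last E-box before the start in each oogenesin was CAGCTG, its first base 19 bases upstream in Oog1, 43 in Oog2, 42 in Oog3 and 41 in Oog4. This form, looked up after the promoters had been read, occurs in 16.3% of all promoters and in none of the other 5. TAATTG on either strand was found once each in Oog3 and Oog4 (8.0% of all promoters) and TAATTA in none of the 9 (5.29% of all promoters). These are matches of letters, and binding was not measured.

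The libraries held 4074810 to 26855273 estimated reads on genes (median 9498860), spike-ins left out. Besides Ddx4, which set the entry rule, the germ cell markers Dazl, Sycp3 and Figla were at 1 TPM or more in every germ cell library. The germ cell markers Dppa3 and Kit were at 1 TPM or more in most of these libraries but not in all. In 7 pairs of libraries the profiles were nearly the same: log2 levels correlated at 0.983 to 0.992 within these pairs, against 0.804 for the next most similar pair. These are called repeat pairs here and may not be separate cells, so the main Obox3 values are also given with each pair counted once (7 profiles fewer). Libraries are called by their number in the labels, S001 to S146. Clusters 1, 2 and 3 (19, 93 and 33 libraries) were rebuilt from 20 oocyte and meiosis genes that the study names, none of them among the 10 genes. They differ in size from the study's own, which were made from fewer of the cells and with another Seurat version. What the difference in size comes from was not tested. Sycp2, a component of the meiotic chromosome axis, averaged 495, 167 and 62.4 TPM in clusters 1, 2 and 3, and the egg coat gene Zp3 averaged 0.0943, 14.7 and 557 TPM. Both were used to make the clusters. The same marker genes gave the order of the libraries (their first principal component), cut into 5 bins of 29.

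Most of the 10 genes were nearly silent. Obox1 and Obox6 had no read in any germ cell library, out of 1410258401 reads, where a floor of 3 reads corresponds to 0.00213 CPM (reads per 1000000 reads on genes). For a count of 0 over these libraries, a floor of 3 libraries is 2.07% of them and the exact interval reaches 2.51%. With each repeat pair counted once these are 2.17% and 2.64%. Both describe libraries with a read, and set no limit on cells whose transcripts went unread. The 8 other genes reached 0.1 TPM, the study's detection limit, in at least 1 library, and 5 of them (Oog1, Oog2, Oog4, Oosp1 and Obox3) reached 1 TPM. Only Obox3 passed the filter on low values (0.1 TPM in 10 libraries or more), so 1 of 10 genes, and 70 libraries had none of the 10 genes at 0.1 TPM. Without Obox3 that number was 130. Intervals here are exact 95% Clopper-Pearson intervals and cover counting error only, since reads of amplified cDNA are not independent molecules.

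**Figure D1:**
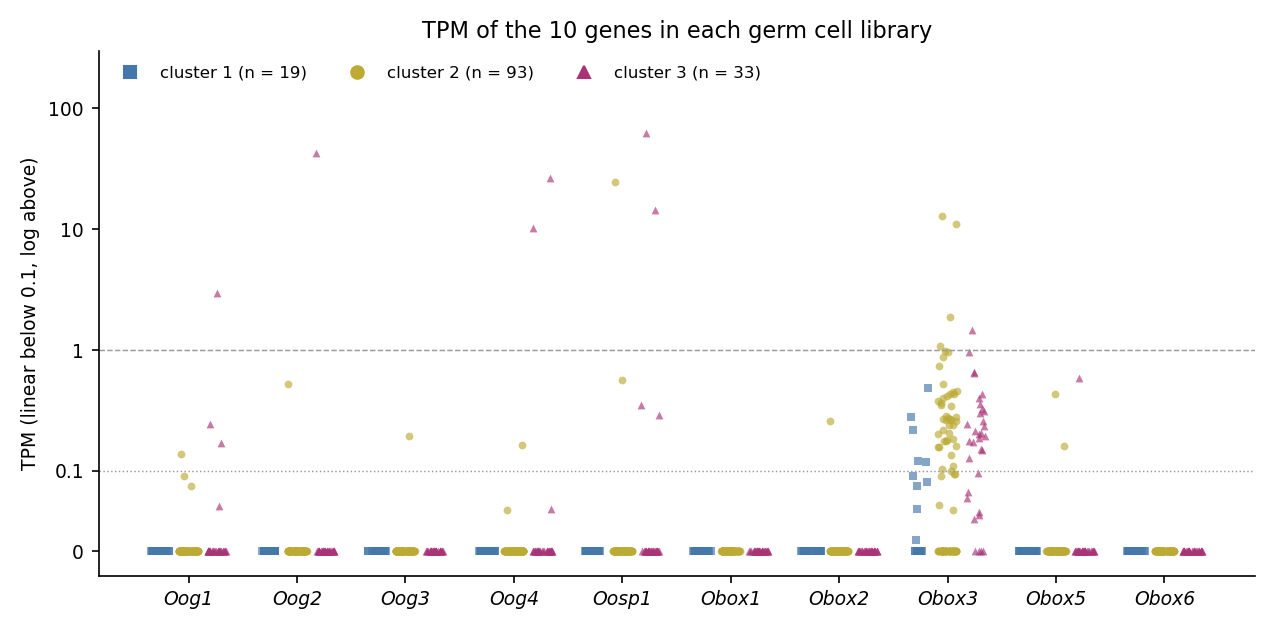
Level of each of the 10 genes (x axis) in each germ cell library, in TPM on an axis that is linear below 0.1 and logarithmic above. Points are libraries and their shape and colour give the cluster, the dotted line marks 0.1 TPM and the dashed line 1 TPM. Most points lie at 0, Obox3 has a broad band below 1 TPM, and the highest points of Oog1, Oog2 and Oog4 and of Oosp1 are libraries of cluster 3.

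Among the oogenesins, Oog4 had the most reads, 595 in 5 libraries. Its levels were 26.8 TPM (49.6 CPM) in library S092, 10.3 TPM (14.9 CPM) in library S060, 0.163 TPM (2 reads) in library S061, and 0.0524 and 0.0519 TPM (1 read each) in libraries S087 and S017. All other libraries were at 0, so the median was 0 and the 3 highest libraries made up 99.7% of the sum. The 2 libraries above 10 TPM both belonged to cluster 3.

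Oog2 was read in 2 libraries, at 42.7 TPM (11.5 CPM) in library S137 of cluster 3 and at 0.521 TPM (1 read) in library S013 of cluster 2. Library S137 alone gave 98.8% of the sum. Oog1 reached 2.99 TPM (41 reads) in library S019 of cluster 3. It was at 0.246 TPM (2 reads) in library S012, 0.171 TPM (an estimate of 0.502 read) in library S138 and 0.137 TPM (2 reads) in library S017. It lay below 0.1 TPM but above 0 in 4 further libraries. Oog3 was seen in library S073 alone, at 0.193 TPM from 3 reads. No library held more than 1 oogenesin at 0.1 TPM, and those above 1 TPM (libraries S019, S060, S092 and S137) did not overlap between genes. Oog1, Oog2, Oog3 and Oog4 were at 0.1 TPM in only 4, 2, 1 and 3 libraries. Such counts are too few to tell whether the genes keep apart.

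Sequence sharing bears on these assignments. In the annotated transcripts, 93.4% of the distinct 31-base words of Oog1 also occur in transcripts of other genes, foremost Gm2042 (90.2%) and Gm10436 (72.1%), so the Oog1 level is uncertain. The share was 42.99% for Oog2 (Gm13084, 39.6%), 26.9% for Oog3 (Gm4350, 22.9%) and 3.43% for Oog4. The Gm copies were not analysed here, so how reads were divided between them and the oogenesins was not tested. The read estimates were whole numbers within 0.01 read in 5 of 8 libraries for Oog1, and in every library above 0 for Oog2, Oog3 and Oog4.

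Oosp1 was read in 6 libraries and all of its 31-base words were its own. Its levels were 63.1 TPM (50.1 CPM) in library S120, 24.6 TPM (9.05 CPM) in library S005, 14.4 TPM (11.02 CPM) in library S138, 0.565 TPM (5 reads) in library S017, 0.352 TPM (2 reads) in library S010 and 0.288 TPM (1 read) in library S087. No library lay between 0.565 and 14.4 TPM, so the upper 3 libraries stood apart from the lower 3, which held 1 to 5 reads each. Detection at 0.1 TPM covered 4.14% of the libraries (interval 1.53 to 8.79%), 0 of 19 in cluster 1, 2 of 93 in cluster 2 and 4 of 33 in cluster 3 (12.1%, interval 3.40 to 28.2%).

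Together, 7 libraries held an oogenesin or Oosp1 at 1 TPM or more, and each held 1 such gene. Of these, 6 were in cluster 3 and library S005 was in cluster 2, but S005 was in cluster 3 under each of 3 other clusterings (Ward's method, 2000 variable genes, and the same genes without the left-out library S029, which took part in making the main clusters). All of them fell within the last 34 ranks of the order, 6 in the last bin and library S005 in the bin before it. Their Zp3 levels ran from 111.9 TPM (library S120) to 1454 TPM (library S138), their Zp2 levels were 122.7 TPM or more, and Padi6, a gene of the oocyte cytoplasmic lattices, was 126.1 TPM or more. These 7 were 20% (interval 8.44 to 36.9%) of the 35 libraries with at least 100 TPM of Zp3, and the other 28 such libraries had none of these genes at 1 TPM. Among the 7 were none of the repeat pairs, and their depth was 9106767 to 13335831 reads. In the 7 libraries Foxl2 was at 0, the 7 pregranulosa markers summed to 0.160 to 8.10 TPM and the 6 stromal markers to 0.118 to 25.2 TPM. The 6 blood and endothelial markers summed to 0.150 to 3046 TPM, the highest value in library S092, where the globin gene Hbb-bs stood at 1385 TPM beside Oog4, and the part of this in the Oog4 value was not tested. In library S060, the other with Oog4, Hbb-bs was at 0. Over all germ cell libraries the sums ran from 0 to 81.6 TPM for the pregranulosa, 0 to 789 TPM for the stromal and 0 to 165066 TPM for the blood and endothelial markers. Hbb-bs reached 100 TPM in 41 germ cell libraries.

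**Figure D2:**
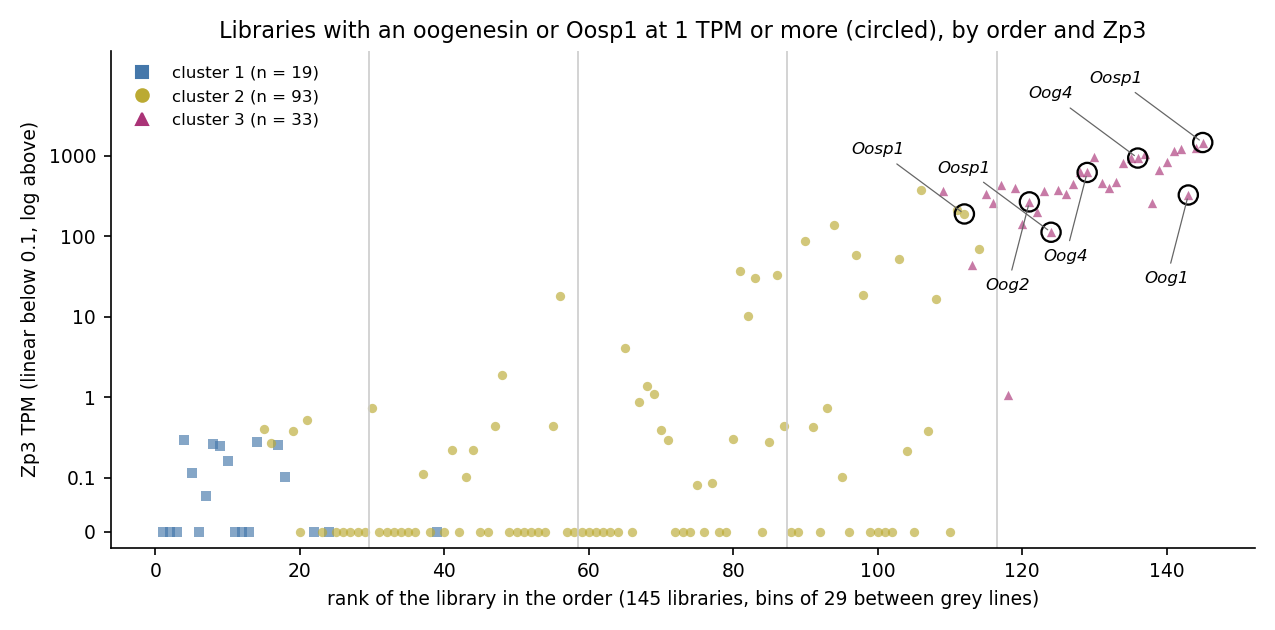
Zp3 level (y axis, TPM, linear below 0.1 and logarithmic above) against the rank of each germ cell library in the order built from 20 marker genes, Zp3 among them. Circles and gene names mark the 7 libraries with an oogenesin or Oosp1 at 1 TPM or more, which all lie within the last 34 ranks and have at least 111.9 TPM of Zp3.

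Cluster means followed these few libraries. Mean Oosp1 was 0, 0.270 ± 2.55 (SD, n = 93 libraries) and 2.37 ± 11.2 TPM (SD, n = 33) in clusters 1, 2 and 3. The means were 0, 0.00231 ± 0.0176 and 1.12 ± 4.94 TPM for Oog4, and 0, 0.00561 ± 0.0541 and 1.29 ± 7.44 TPM for Oog2. On the log2 scale with a pseudocount of 1 TPM, cluster 3 over cluster 2 gave ratios of 1.41 for Oosp1, 1.19 for Oog2 and 1.08 for Oog4, so 3 of 10 genes were higher by at least 1.5-fold and 0 were lower. Over the 14115 coding genes that passed the filter, 15.6% were higher and 25.8% lower by that rule, and over all 19780 coding genes, the closer background for genes of which 9 of 10 did not pass, 12.5% were higher and 19.9% lower. In the main clusters each of the 3 rests on 1 library. The ratio was 0.21 for Oosp1 without library S120, 0.40 for Oog4 without library S092 and -0.0081 for Oog2 without library S137. With library S005 left out instead, the Oosp1 ratio was 1.74. In the 3 other clusterings this ratio was 1.80 (Ward), 1.74 (variable genes) and 2.00 (without S029), each with S120 kept. As CPM the Oog2 ratio was 0.43, below 1.5-fold. As differences of mean log2(TPM + 1), in which high values weigh less, 0 of the 10 reached 1.5-fold.

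Against cluster 1 the same 3 genes were called (3 of 10 higher and 0 lower, against 24.9% and 32% of the filtered and 19.2% and 25.6% of all coding genes), but cluster 1 had no read of any of them. A floor of 3 reads over the cluster makes the pooled CPM in cluster 3 at least 110.6-fold higher for Oosp1, at least 105.4-fold for Oog4, at least 23.9-fold for Oog2 and at least 7.83-fold for Oog1, nearly all from the libraries named. These bounds describe the pooled reads of these libraries only, and set no bound on a difference between the cells of the clusters. Between clusters 2 and 1, 0 of 10 were called in either direction, against 21.7% higher and 19.5% lower among the filtered genes and 16.8% and 16.6% among all coding genes. Cluster 1 has 19 libraries, so a gene seen in 0 of 19 leaves an interval of up to 17.6% for the share of libraries.

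Obox3 had another pattern, with low levels in many libraries. It was at or above 0.1 TPM in 71 libraries (48.97%, interval 40.6 to 57.4%), or 68 with each repeat pair counted once (49.3%). In 66 of the 71 it stayed below 1 TPM, the median level among the 71 was 0.266 TPM from a median of 4.83 reads, and a further 16 libraries lay above 0 but below the limit. Over all germ cell libraries the lowest was 0, the median 0.0968 and the highest 12.8 TPM.

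The lowest, median and highest Obox3 levels were 0, 0.0144 and 0.485 TPM in cluster 1, 0, 0.0583 and 12.8 TPM in cluster 2, and 0, 0.195 and 1.48 TPM in cluster 3. The ranges overlap throughout. The share at 0.1 TPM was 26.3% (interval 9.15 to 51.2%) in cluster 1, 46.2% (35.8 to 56.9%) in cluster 2 and 69.7% (51.3 to 84.4%) in cluster 3, and after thinning every library to 1000000 reads the share with a read was 15.8%, 21.5% and 39.4%. Mean levels did not keep that order. They were 0.0816 ± 0.127, 0.432 ± 1.74 and 0.266 ± 0.303 TPM (SD, n = 19, 93 and 33), and no ratio of means between clusters reached 1.5-fold with the pseudocount of 1 TPM. The mean of cluster 2 rests on libraries S046 and S141, at 12.8 and 10.99 TPM (21.1 and 18.6 CPM), which are a repeat pair. With pairs counted once (86 profiles) it was 0.316 TPM, the share 46.5% and the log2 ratio to cluster 1 0.28. Without both libraries it was 0.180 TPM, and the next highest germ cell library stood at 1.89 TPM. With a pseudocount of 0.1 TPM the log2 ratios of Obox3 passed the 1.5-fold limit, at 1.55 for cluster 2 over cluster 1 (0.41 with 1 TPM) and 1.01 for cluster 3 over cluster 1 (0.23), and as CPM the first was 0.62. Pooled CPM was 7.10-fold and 3.22-fold that of cluster 1, where Obox3 had 28 reads, and the first of these was 3.32-fold without library S141 and 2.32-fold without S046 and S141.

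Obox3 detection also followed the library numbers. At 0.1 TPM it was seen in 11 of the 19 libraries S001 to S019, in 10 of the 55 germ cell libraries S020 to S075 (18.2%, interval 9.08 to 30.9%) and in 50 of the 71 libraries S076 to S146 (70.4%, interval 58.4 to 80.7%), ranges that were set after the data were seen. The labels do not say what the numbers stand for, and the clusters are spread unevenly over them, with 7, 43 and 5 libraries of clusters 1, 2 and 3 in S020 to S075 and 9, 39 and 23 in S076 to S146. Within S020 to S075 the shares with Obox3 were 14.3%, 18.6% and 20% in clusters 1, 2 and 3, and within S076 to S146 they were 33.3% (interval 7.49 to 70.1%), 74.4% (57.9 to 86.96%) and 78.3% (56.3 to 92.5%). In S001 to S019 they were 33.3%, 54.5% and 80% of 3, 11 and 5 libraries. The part of the library number in the Obox3 shares, in its bins and in its rho with the order was not tested. The libraries that carry the calls of Oosp1, Oog2 and Oog4 (S120, S137 and S092) all lie in S076 to S146, and library S005 does not. For cluster 3 over cluster 2 within that range, 3 of 10 passed 1.5-fold upward and 0 downward, beside 16.4% and 29.3% of the filtered and 13.2% and 22.4% of all coding genes, at log2 ratios of 2.13 for Oosp1, 1.51 for Oog2 and 1.11 for Oog4.

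In the 7 repeat pairs Obox3 was compared library by library. In 2 of the 7 pairs both libraries were at or above 0.1 TPM of Obox3, and in the other 5 only 1 of them was. Values were 12.8 and 10.99 TPM in libraries S046 and S141, 0.157 and 0.368 TPM in S058 and S142, and 0 against 0.459, 0.350 and 0.403 TPM in 3 pairs (S045 and S140, S062 and S143, S063 and S144). In the remaining pairs they were 0.103 and 0 TPM (S123 and S145) and 0.280 and 0.0514 TPM (S124 and S146). Of the 6 pairs below 1 TPM, both libraries were at 0.1 TPM in 1. In 5 pairs (the first libraries S045, S046, S058, S062 and S063) the numbers fall in different ranges, and Tbata, a gene whose levels were like those of Obox3, was at 0 TPM in each of these first libraries and at 10.6 to 29.1 TPM in their partners.

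**Figure D3:**
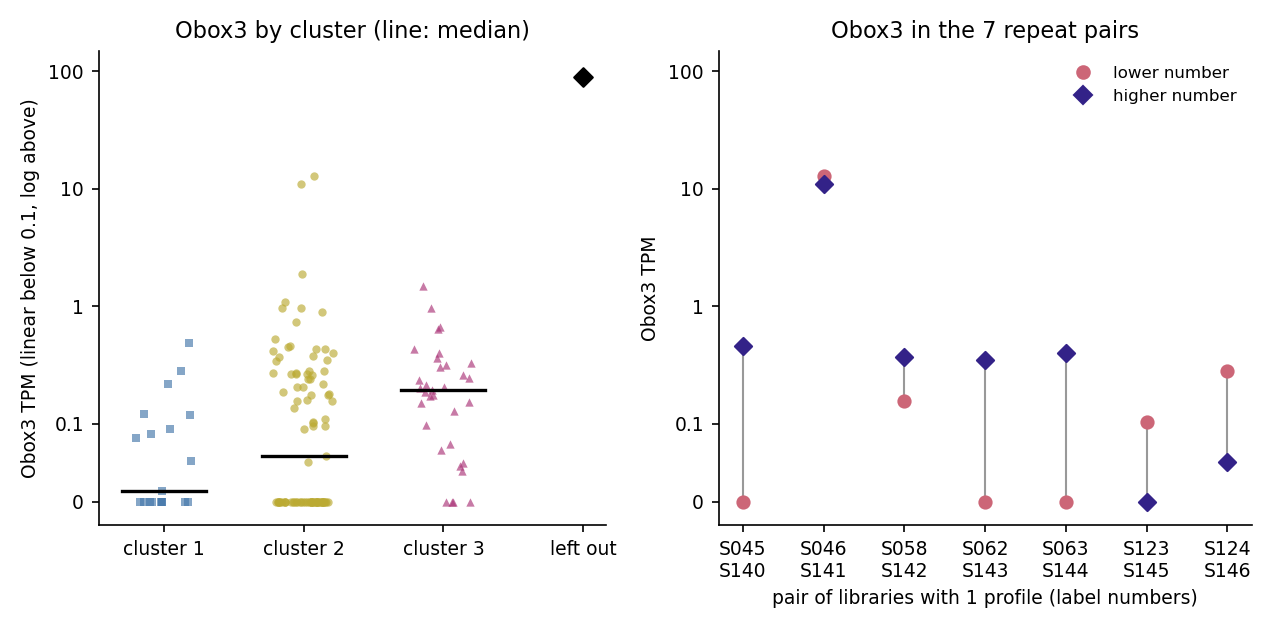
Obox3 level in TPM (y axis of both panels linear below 0.1 and logarithmic above): left, each germ cell library by cluster with the median as a line, and the library left out for Ddx4 below 1 TPM as a diamond. The right panel gives both libraries of each of 7 repeat pairs, joined by a line. The left-out library is the highest of the 146, and only the pair of libraries S046 and S141 is above 1 TPM in both.

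Several measurements limit what the Obox3 row stands for. Library S029, left out with Ddx4 at 0 TPM and 1408459 reads, had the highest Obox3 level of all 146 libraries, 88.8 TPM from 244 reads, while Zp3 and Figla were at 0 and Sycp3 at 0.659 TPM. Library S010, just inside the limit with Ddx4 at 7.49 TPM, had Obox3 at 0.0662 TPM. Of the 87 germ cell libraries with any Obox3 read, 17.2% had a whole-number estimate (within 0.01 read), against every one of the 3 libraries with Obox5. The annotation holds 8 Obox3 transcripts of 528 to 2287 bases, and 31.2% of their 31-base words occur in transcripts of other genes, most often in the pseudogenes Obox3-ps3 (19.9%) and Obox3-ps2 (15.97%), both listed at 0 in every germ cell library. Whether the low Obox3 values are transcripts of this gene was not tested.

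The other Obox genes were close to the floor. Obox5 was at 0.583 TPM (7 reads) in library S010, 0.436 TPM (3 reads) in library S139 and 0.160 TPM (3 reads) in library S017. Obox2 was seen in library S073 alone, at 0.257 TPM from 3 reads. The intervals on their shares, 0.429 to 5.93% for Obox5 and 0.0175 to 3.78% for Obox2, overlap. In transcripts, 71.2% of the 31-base words of Obox1 are shared, 65.8% with Obox2 alone, and 80.3% of those of Obox2, so reads of Obox1 and Obox2 can be hard to tell apart, but both together had 3 reads.

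Along the order, Obox3 was at 0.1 TPM in 9, 13, 15, 14 and 20 of 29 libraries from the first to the last bin. Its bin means were 0.122, 0.964, 0.212, 0.229 and 0.216 TPM, and the second mean was 0.630 TPM with repeat pairs counted once. Across the germ cell libraries its level had a Spearman's rho of 0.20 with the order (0.22 with pairs counted once) and 0.20 with depth, as a description. Oosp1 had bin means of 0, 0, 0.0195, 0.859 and 2.68 TPM and Oog4 of 0, 0, 0.00739, 0 and 1.28 TPM. Oog2 had a mean above 0 in the last 2 bins only, 0.0180 and 1.47 TPM. No library of the first 2 bins held any oogenesin, Oosp1, Obox2 or Obox5 at 0.1 TPM. The coding genes whose levels were most like Obox3 over these libraries were Slc39a2, a zinc transporter (rho 0.68), Slitrk2, a neuronal membrane protein (0.66), and Tbata (0.65), and of these Slc39a2 and Slitrk2 are also low, with means of 0.177 and 0.385 TPM. All of them followed the library numbers too. In S020 to S075, Slc39a2, Slitrk2 and Tbata were above 0 in 3, 4 and 3 of 55 germ cell libraries, and in S076 to S146 in 57, 70 and 70 of 71.

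A few libraries held low reads of several of the genes. Library S017 held 4 of the genes at 0.1 TPM, Oog1, Oosp1, Obox3 and Obox5, at 0.137, 0.565, 0.272 and 0.160 TPM. It lies in cluster 2, with Zp3 at 0.306 TPM and a depth of 17440741 reads. Library S073 held Oog3, Obox2 and Obox3, and library S010 held Oosp1 and Obox5. Of 28 pairs among the 8 genes seen, 11 shared a library at 0.1 TPM, and without Obox3 it was 4 of 21 pairs. Oog1 and Oosp1 met in libraries S017 and S138, which is 2 of 4 libraries with Oog1 and 2 of 6 with Oosp1. The Oog1 estimate was 2 reads in library S017 and only 0.502 read in library S138. Oosp1 and Obox5 met in libraries S017 and S010, which is 2 of 6 and 2 of 3.

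Some relatives of the oogenesins were more abundant. Of 13 other rows of the PRAME family, 4 averaged 1 TPM or more in a cluster and 4 had no library at 0.1 TPM. Pramef12 was at 1 TPM or more in 73.1% of the libraries, and from cluster 1 to 3 it averaged 0.303, 30.4 and 26.7 TPM. It was at 1 TPM or more in all 7 libraries that held an oogenesin or Oosp1, from 11.2 TPM in library S005 to 99.7 TPM in library S060. This is not particular to the 7, since Pramef12 reached 1 TPM in 32 of 33 libraries of cluster 3. It also did so in 28 of 29 libraries in bin 4 and in 28 of 29 in bin 5 of the order. Pramel3 ran the other way, with means of 53.99, 17.4 and 0.549 TPM, as did Pramel1 with 4.64, 3.34 and 0.303 TPM. Pramef8 had means of 29.2, 14.9 and 12.9 TPM. Between clusters 3 and 1, 1 of the 13 was higher and 3 were lower by 1.5-fold. This was so for 24.9% and 32% of the filtered and 19.2% and 25.6% of all coding genes, and 7 of the 13 passed the filter. The log2 ratios were 4.41, -5.15, -2.11 and -1.12 for Pramef12, Pramel3, Pramel1 and Pramef8. The directions of these 4 held when levels were scaled to the spike-ins and when 2000 variable genes made the clusters, but Pramef8 at -0.53 per spike-in and Pramef12 at 0.47 with the variable genes fell short of 1.5-fold.

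Among genes related to Oosp1, its neighbours were read more often in cluster 3. Oosp2 was at 1 TPM or more in 12 libraries, 11 of them in cluster 3, with cluster averages of 0, 0.0263 and 5.65 TPM and a highest level of 44.2 TPM. Oosp3 reached 1 TPM in 3 libraries, all in cluster 3, with a highest level of 18.99 TPM. Cluster 1 had no read of either gene, and pooled CPM in cluster 3 was at least 107.2-fold higher for Oosp2 and at least 40.2-fold for Oosp3 against its floor of 3 reads. These bounds describe pooled reads only. At 0.1 TPM, Oosp2 was seen in 12 and Oosp3 in 4 of 33 libraries of cluster 3 (intervals 20.4 to 54.9% and 3.40 to 28.2%). The 0 of 19 in cluster 1 leaves up to 17.6%, which overlaps the interval of Oosp3. Any of the 3 Oosp genes at 1 TPM was found in 15 libraries, 13 of them in cluster 3. All 3 met only in library S138, at 14.4 TPM for Oosp1, 25.5 TPM for Oosp2 and 18.99 TPM for Oosp3. Oosp1 and Oosp2 shared 1 library, which is 1 of 3 and 1 of 12, and Oosp2 and Oosp3 shared 2 libraries, which is 2 of 12 and 2 of 3. Plac1, the placental relative, averaged 0.0103, 1.36 and 14.9 TPM. The log2 ratio of cluster 3 over cluster 2 was 2.75 for Plac1, 2.69 for Oosp2 and 0.96 for Oosp3. The Oosp3 mean behind its ratio, 0.94 TPM in cluster 3, rests mostly on libraries S138 (18.99 TPM) and S006 (10.5 TPM).

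**Figure D4:**
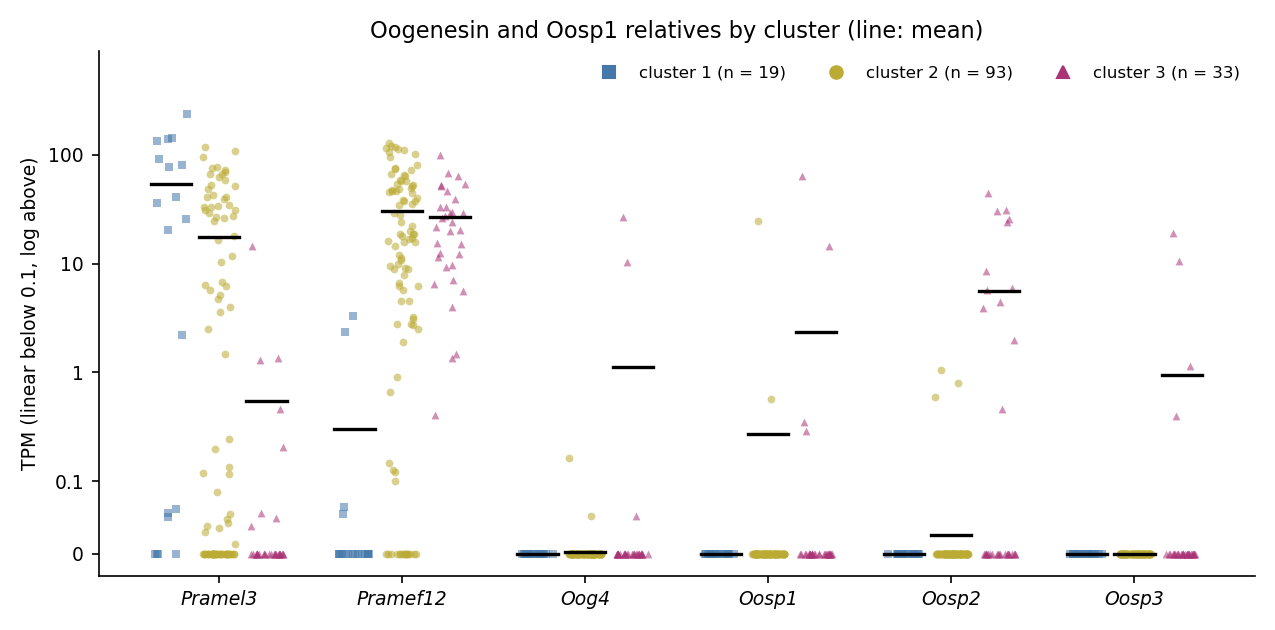
TPM (linear below 0.1 and logarithmic above) of Pramel3, Pramef12, Oog4, Oosp1, Oosp2 and Oosp3 in each germ cell library, split by cluster, with the cluster mean as a line. Pramel3 is highest in cluster 1 and Pramef12 in clusters 2 and 3, while Oog4, Oosp1, Oosp2 and Oosp3 have points above 1 TPM in cluster 3, and outside it in 1 Oosp1 and 1 Oosp2 library of cluster 2.

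Homeobox relatives of the Obox genes were also compared. Of 47 other Obox rows, 45 of them pseudogenes by name, 9 were at 0.1 TPM in any library. Obox8 was at 1 TPM or more in 14 libraries (1, 11 and 2 in clusters 1, 2 and 3) with a highest level of 18.5 TPM, and the pseudogene Obox4-ps2 reached 91.5 TPM in library S062 and 62.1 TPM in library S143, a repeat pair of cluster 2, with 0 TPM in all others. Obox7 reached 0.296 TPM in library S073 alone, which also held Oog3 and Obox2. Other homeobox genes of germ cells were abundant at the same time. Lhx8 and Nobox averaged 521 ± 340 and 251 ± 182 TPM (SD over the germ cell libraries) and Pou5f1, a pluripotency factor, 13.5 ± 28.6 TPM, all 3 used in the clustering. Of the Rhox genes, which form a cluster on the X chromosome and are expressed in gonads, Rhox13 averaged 68.4, 29.2 and 6.22 TPM in clusters 1, 2 and 3 and Rhox9 28.1, 19.7 and 4.00 TPM. Rhox5 averaged 74.4, 98.97 and 44.7 TPM, and its log2 ratio of cluster 3 over cluster 1 was -0.72 but 0.15 per spike-in.

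The follicle transcription factors were detected in most germ cell libraries. Figla was at 1 TPM or more in every germ cell library and Lhx8, Sohlh1 and Nobox in 97.2%, 92.4% and 91.03%. Figla averaged 309, 1676 and 1162 TPM in clusters 1, 2 and 3 and Sohlh1 23.9, 358 and 291 TPM, against 0 reads of Obox1 and Obox6 and means below 1 TPM over all of them for the other 8 genes. Sohlh2 averaged 140, 85.7 and 53 TPM, and Taf4b 54.1, 27.1 and 12.4 TPM. In the 7 libraries with an oogenesin or Oosp1, Figla ranged from 918 to 1203 TPM, inside its range over all libraries. All of these but Sohlh2 were used in the clustering, and the calls of 4 of them depend on it. The log2 ratio of cluster 3 over cluster 1 was 1.91 for Figla and 2.29 for Lhx8, but -0.0057 and -0.46 when 2000 variable genes made the clusters. Those of Sohlh1 and Nobox were 3.55 and 2.67, and 0.30 and 0.34 with the variable genes, below 1.5-fold. The lower levels of Taf4b (-2.04, and -1.78 with the variable genes) and Sohlh2 (-1.39 and -1.19) stayed past 1.5-fold there, but Sohlh2 was -0.48 per spike-in.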

How the data were processed

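Single cells were processed by Smart-seq2 with spike-in RNA. The authors checked reads with FastQC (v0.11.8) and quantified them with Salmon (v0.10.0, sequence bias correction) against mm10 plus spike-ins; the deposited tables give TPM and estimated counts (reads) per gene, and the annotation release is not given in the sources used here. Here TPM was used as deposited, estimated counts for depth, thinning (1000000 reads, seed 11) and pooled reads, rounded to whole numbers. The 3 clusters came from Seurat 5.3.0 under R 4.3.3, run on 20 genes that the study names (19 in its account of the clusters, and Taf4b; 10 components, 20 neighbours, resolution 0.2). With 1 sample there was no test: genes were called at 1.5-fold of mean TPM plus a pseudocount of 1. The filter was 0.1 TPM in 10 libraries, over 19780 coding genes. Named were the 10 genes, per list of relatives up to 6 genes with the highest mean among those at 1 TPM in a cluster, and the 3 genes most like a gene seen in 20% of libraries. Genes below the first of these limits, such as Oosp3, Obox7 and Obox8, were named after their values were seen. The 10 genes and all lists were chosen with earlier results of these data known. Depth was 4074810 to 26855273 reads per library. Shared 31-base words came from GENCODE M21 transcripts, which stand in for the authors' annotation. No column of a sample outside the series was used. Alternatives covered pseudocount, scaling, clusters, detection limit, order and left-out libraries.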

Additional observations from a re-analysis of the deposited data

How the results depend on the processing

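With 3 of 10 genes higher in cluster 3 than in cluster 2 (Oosp1, Oog2 and Oog4), other settings gave 2 to 4, except 0 as a difference of mean log2(TPM + 1). For cluster 3 over cluster 1 the count of 3 became 5 with a pseudocount of 0.1 TPM and 0 as a difference of mean logs. For cluster 2 over cluster 1 the count of 0 higher became 2 with a pseudocount of 0.1 TPM, 1 as CPM and 1 per spike-in. Obox3 was among them with the smaller pseudocount and as CPM. With all 146 libraries, 1 gene was lower in cluster 2 and in cluster 3 than in cluster 1, Obox3, since library S029 enters cluster 1. Leaving out each library in turn, the counts were 2 to 3 for both comparisons with cluster 3 and 0 to 0 elsewhere, and the log2 ratio of Oog2 (cluster 3 over cluster 2) ran from -0.0081 to 1.22. Genes seen numbered 8 at 0.1 TPM and 5 at 1 TPM. Without libraries with at least 100 TPM of Hbb-bs, an alternative chosen after seeing the data, both counts with cluster 3 were 2, since library S092 with Oog4 is left out. In libraries S076 to S146 alone, chosen likewise, the counts between clusters were 3, 3 and 0 (the libraries behind the 3 calls lie there), while the share with Obox3 in cluster 2 was 74.4%, against 18.6% in S020 to S075. Libraries with an oogenesin or Oosp1 in the last bin were 6, and 5 with the order from 2000 variable genes. Per spike-in, the median log2 ratio of all genes for cluster 3 over cluster 2 moved from -0.14 to 0.48. No paired analysis was possible because all libraries form 1 group. Obox1 and Obox6 had no read in any germ cell library, and the exact interval on the share of libraries with a read reaches 2.51%. It reaches 2.64% with repeat pairs counted once. This interval depends on the number of libraries and not on depth, and sets no limit on cells whose transcripts went unread. Levels of 1 to 3 reads lie at the limit of detection.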
